A study of Mus musculus with 6 samples.

Results

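Transcripts of 3 genes of the extracellular adenosine pathway were followed in sorted tumor endothelial cells (TECs): Nt5e, Entpd1 and Adora2a. They are 3 of the 750 genes in the deposited table, and all 3 were among the 379 genes that the low-signal filter of the study kept. They were chosen by their place in the pathway and in part by the large difference of Nt5e between the same 6 samples, so the differences of the members below are a description without a test. TECs came from subcutaneous B16-F10 tumors, a mouse melanoma line, 18 days after injection of 250000 cells into C57Blk6 mice, and transcripts were measured on the NanoString nCounter, in which barcoded probes are hybridized to RNA and counted without amplification. There were 3 Atg5BECKO samples (replicates 2, 3 and 5) and 3 WT samples (replicates 1, 4 and 6). Atg5BECKO mice carried Pdgfb-CreERT2 with Atg5 fl/fl, an inducible Cre of blood endothelium that removes the autophagy gene Atg5 after tamoxifen, in a line that also holds the Rosa26 tdTomato reporter. WT mice were littermates without the Cre. Whether they also received tamoxifen is not given in the sources used here. Mice of both sexes and of 7 to 14 weeks were used in the study. The panel has no probe for Atg5, so its loss could not be checked here. The paper reports the loss by qPCR in sorted TECs of B16-F10 tumors. Live CD45- CD31+ cells were sorted after magnetic depletion of CD45+ cells and enrichment of CD31+ cells. The paper describes the profiled cells as also negative for Ter119. Whether a sample was 1 mouse or a pool is not given in the sources used here, so the spread between samples may be partly technical.

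Outside the cell, adenosine is made from released ATP in steps. CD39, the product of Entpd1, removes phosphates from ATP and ADP to leave AMP, and CD73, the GPI-anchored product of Nt5e, turns AMP into adenosine. Adenosine then acts on G protein-coupled receptors, among them the A2a receptor encoded by Adora2a, which raises cAMP in the target cell. On endothelium CD39 limits platelet activation by ADP, CD73 helps keep the vessel wall tight and restrains leukocyte adhesion, and in tumors the adenosine they form dampens T cells. Nt5e is a known target of hypoxia-inducible factor.

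Endothelial identity genes (11 of 11 tested, among them Pecam1 and Cdh5) averaged 10.86 ± 0.19 on the log2 scale in Atg5BECKO TECs, against 10.78 ± 0.03 in WT TECs (SD, n = 3 each), and 0 of them passed the thresholds of the paper in either direction. The whole counts recovered from the values summed to 168454 to 198541 per Atg5BECKO sample and 76784 to 244561 per WT sample, lowest in WT replicate 6. WT replicate 4 stood apart on the first principal component of the tested genes, at 13.34 against -6.28 to 3.41 in the other samples. Log2 fold changes are Atg5BECKO minus WT throughout, and their median over the 379 tested genes was 0.24, where 74.4% were positive. With limma and Benjamini-Hochberg adjustment 0 genes, or 0%, had an adjusted p under 0.05, against 61, or 16.1%, at an unadjusted p under 0.05. The thresholds of the paper ask for a size of 0.7 or more on the log2 scale together with an unadjusted p under 0.05, and at these 10.8% of the tested genes were higher and 0.792% lower in Atg5BECKO TECs. Of the 3 members, Nt5e was higher at these thresholds, and Entpd1 and Adora2a did not pass. Nothing is read from this count, since Nt5e was chosen with this contrast in view.

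Nt5e, which encodes the AMP-hydrolysing enzyme CD73, was the member that differed most between the groups. Its log2 level was 7.82, 8.64 and 7.78 in Atg5BECKO replicates 2, 3 and 5, against 6.44, 6.76 and 6.68 in WT replicates 1, 4 and 6. Every Atg5BECKO sample lay above every WT sample, as for 25.6% of the tested genes. A further 2.11% were lower without overlap, 27.7% in all. The means were 8.08 ± 0.48 in Atg5BECKO TECs and 6.63 ± 0.16 in WT TECs (SD, n = 3 each), a log2 fold change of 1.45 with a standard error of 0.27, or 2.74-fold. This was the 10th highest log2 fold change of the 379, between Atf3 (1.51) and Rsad2 (1.33), and it lay 1.21 above the median gene. In these sorted bulk samples, more cells with the transcript and more transcript per cell cannot be told apart.

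**Figure D1:**
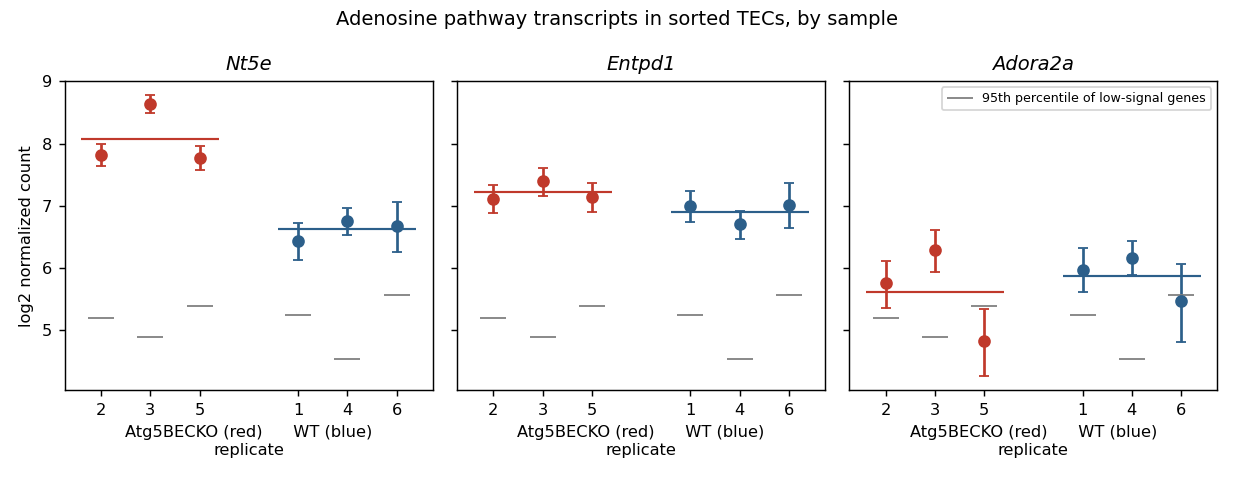
Log2 normalized count (vertical axis) of Nt5e, Entpd1 and Adora2a in each replicate, Atg5BECKO in red on the left and WT in blue on the right. Points carry the exact 95% Poisson interval of their count, coloured lines are group means, and grey dashes mark the 95th percentile of the low-signal genes of that sample. Nt5e is above 7.7 in the Atg5BECKO samples and under 6.8 in the WT samples, Entpd1 lies close in both groups, and Adora2a falls under the grey dash in Atg5BECKO replicate 5 and WT replicate 6.

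The counts behind these levels set their precision. Nt5e was counted 251, 388 and 231 times in Atg5BECKO replicates 2, 3 and 5, and 94, 170 and 53 times in WT replicates 1, 4 and 6, before scaling. In log2 units, the exact 95% Poisson interval of Atg5BECKO replicate 3, the highest sample, ran from 8.49 to 8.78, above the intervals of the other two Atg5BECKO samples. Among WT samples the intervals of 6.14 to 6.73, 6.53 to 6.97 and 6.26 to 7.07 overlapped each other. Such intervals cover counting error only. Without Atg5BECKO replicate 3 the log2 fold change of Nt5e was 1.17, and without WT replicate 4, the sample that stood apart, it was 1.52.

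Entpd1, which encodes CD39, the ATP- and ADP-hydrolysing enzyme upstream of CD73, showed a small difference. Its log2 level was 7.12, 7.40 and 7.14 in Atg5BECKO replicates 2, 3 and 5, against 6.996, 6.70 and 7.02 in WT replicates 1, 4 and 6. The groups did not overlap, as for 25.6% of the tested genes with Atg5BECKO higher. The gap between Atg5BECKO replicate 2 and WT replicate 6 lay within the counting intervals of both, 6.88 to 7.34 and 6.65 to 7.36. The means were 7.22 ± 0.15 in Atg5BECKO TECs and 6.91 ± 0.18 in WT TECs (SD, n = 3 each), with a log2 fold change of 0.31 and a standard error of 0.19. That is 0.071 above the median of all tested genes, so Entpd1 sat near the middle of the table. Its direction depended on the scaling, with -0.066 after median centring of each sample and -0.032 after quantile normalization, and without WT replicate 4 it was 0.21.

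Adora2a, which encodes the cAMP-raising A2a receptor, was low and varied more within the groups than between them. Its log2 level was 5.76, 6.29 and 4.83 in Atg5BECKO replicates 2, 3 and 5, against 5.98, 6.17 and 5.48 in WT replicates 1, 4 and 6. The groups overlapped, and the lowest and the highest of the 6 values were both from Atg5BECKO mice. Group means were 5.62 ± 0.74 in Atg5BECKO TECs and 5.87 ± 0.36 in WT TECs (SD, n = 3 each), a log2 fold change of -0.25 with a standard error of 0.39. Counts were 60, 76 and 30 in Atg5BECKO replicates 2, 3 and 5, and 68, 113 and 23 in WT replicates 1, 4 and 6. In Atg5BECKO replicate 5 and WT replicate 6 the level was under the 95th percentile of the 371 low-signal genes of the same sample, which was 5.40 and 5.57. In the other 4 samples it was above that percentile, with 369 to 371 of the 371 low-signal genes below it. The direction rested on Atg5BECKO replicate 5, without which the log2 fold change was 0.15. Without WT replicate 4 it was -0.10. The counting interval of Atg5BECKO replicate 5, from 4.26 to 5.35 in log2 units, lay below those of replicate 2 (5.37 to 6.12) and replicate 3 (5.94 to 6.61). With this spread between samples, no difference of this receptor transcript could be read in either direction.

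The 3 members also differed in how much they varied among replicates. The SD within groups was 0.36 for Nt5e, 0.17 for Entpd1 and 0.58 for Adora2a on the log2 scale, where the median over all tested genes was 0.33. Atg5BECKO replicate 3 was the highest of the 3 Atg5BECKO samples for each member, and it also had the highest mean log2 level of the endothelial identity genes, 11.05 against 10.66 to 10.88 in the other Atg5BECKO samples and 10.75 to 10.79 in the WT samples. Set against that endothelial level within each sample, Nt5e was 1.36 higher in Atg5BECKO than in WT TECs, Entpd1 0.22 higher, and Adora2a had a difference of -0.34. The endothelial genes averaged nearly the same in both groups. The value of Nt5e against them therefore lies close to its log2 fold change on the deposited scale by construction, and is no further support.

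Differences between members within a sample do not depend on the factor that scales the sample. Nt5e minus Entpd1 was 0.70, 1.24 and 0.63 in Atg5BECKO replicates 2, 3 and 5, against -0.55, 0.052 and -0.34 in WT replicates 1, 4 and 6. The group means were 0.86 ± 0.33 in Atg5BECKO TECs and -0.28 ± 0.31 in WT TECs (SD, n = 3 each), so the CD73 transcript was 2.20-fold higher relative to the CD39 transcript in Atg5BECKO TECs. Every Atg5BECKO sample lay above every WT sample. This follows in large part from the choice of Nt5e, whose own groups did not overlap, and no share over other gene pairs was computed. The difference was between 0.95 and 1.31 when any 1 sample was left out, which is no sign of stability for the same reason. Nt5e minus Adora2a averaged 2.45 ± 0.45 in Atg5BECKO TECs and 0.75 ± 0.40 in WT TECs. Entpd1 minus Adora2a averaged 1.59 ± 0.63 in Atg5BECKO TECs and 1.03 ± 0.50 in WT TECs, and here the groups overlapped. Both differences from Adora2a are approximate, because Adora2a was not above the low-signal level in Atg5BECKO replicate 5, which had the highest value of either difference, or in WT replicate 6, the highest of the WT samples. Probes differ in efficiency, so these values compare samples and not the amounts of the transcripts. Because Nt5e was chosen for its difference, they are given without a test.

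**Figure D2:**
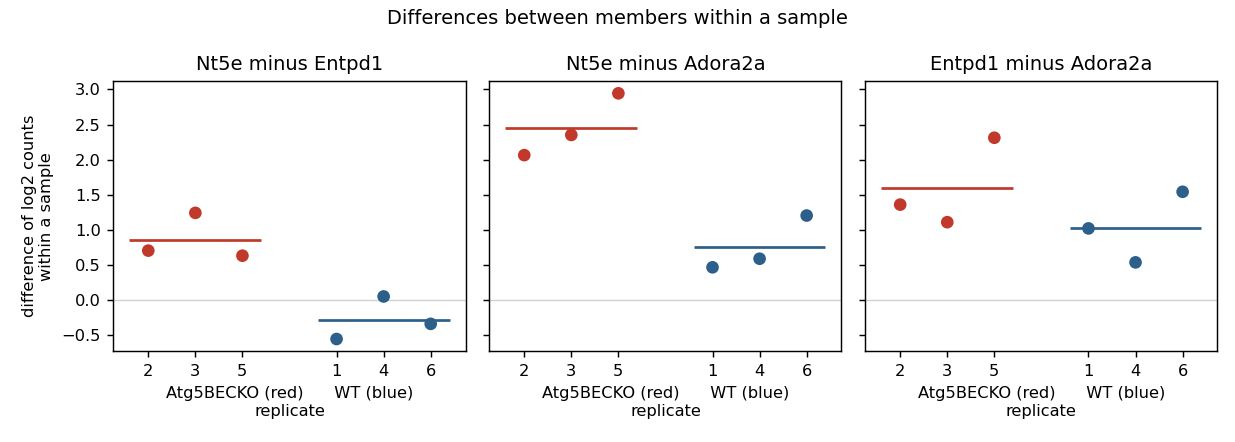
Difference of log2 counts between 2 members of the same sample (vertical axis) in each replicate, Atg5BECKO in red on the left and WT in blue on the right, with coloured lines for group means. Nt5e minus Entpd1 is above 0.6 in all Atg5BECKO samples and under 0.06 in all WT samples, while Entpd1 minus Adora2a overlaps.

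Over 12 alternatives the log2 fold change of Nt5e ranged from 1.07 after median centring to 1.62 after background subtraction. Its sign there is no sign of stability, since Nt5e was chosen by its difference. The scaling mattered because it moved the median of all tested genes from 0.24 on the deposited scale to -0.14 with median centring and -0.050 with quantile normalization. Entpd1 was positive in 10 of its 12 alternatives and Adora2a in 1 of 12.

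**Figure D3:**
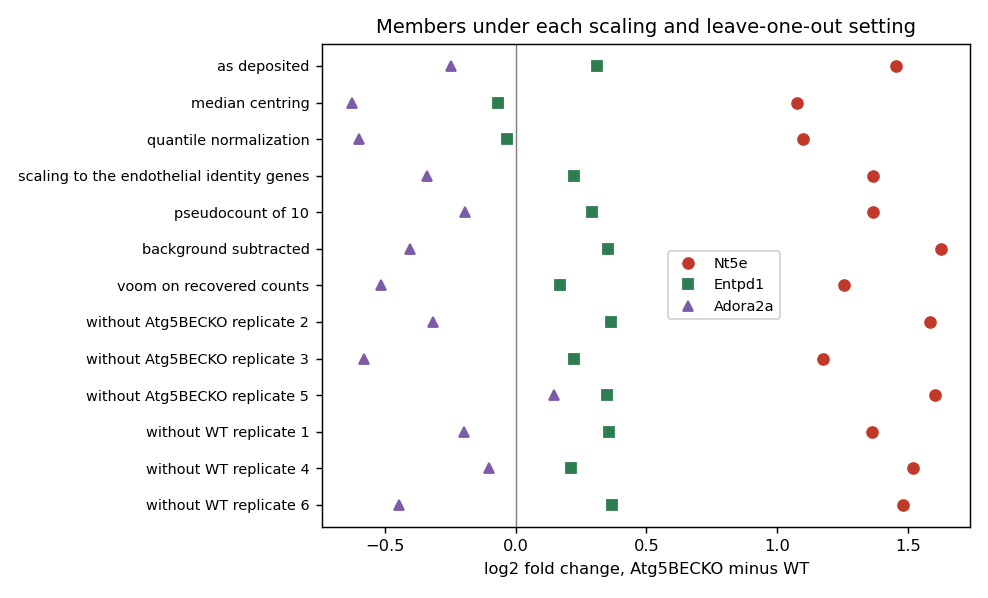
Log2 fold change, Atg5BECKO minus WT (horizontal axis), of the 3 members on the deposited scale and under each alternative scaling or with 1 sample left out (rows). Nt5e stays above 1 throughout, Entpd1 crosses 0 with median centring and quantile normalization, and Adora2a crosses it without Atg5BECKO replicate 5.

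The sequence upstream of the start sites is shown for the AMP-hydrolysing and the ATP-hydrolysing enzyme, since Nt5e differed between the groups far more than Entpd1 and both genes have been tied to hypoxia and cAMP in other systems. RefSeq (GRCm38.p6) gave windows for 2 of the 3 members, 1 for Nt5e and 2 for Entpd1. The 250 bases before each start were searched on both strands for the hypoxia response cores ACGTG and GCGTG, the GC box GGGCGG and the cAMP response half-site TGACG, and matches are in capitals. They are, on the plus strand, at chr9:88327359-88327608 for Nt5e and at chr19:40612116-40612365 and chr19:40659520-40659769 for Entpd1.
Nt5e: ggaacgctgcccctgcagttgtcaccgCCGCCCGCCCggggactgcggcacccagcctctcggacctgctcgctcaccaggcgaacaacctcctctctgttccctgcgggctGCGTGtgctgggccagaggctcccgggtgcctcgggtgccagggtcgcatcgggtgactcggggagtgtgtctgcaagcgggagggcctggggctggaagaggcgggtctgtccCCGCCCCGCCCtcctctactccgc
Entpd1, window 1: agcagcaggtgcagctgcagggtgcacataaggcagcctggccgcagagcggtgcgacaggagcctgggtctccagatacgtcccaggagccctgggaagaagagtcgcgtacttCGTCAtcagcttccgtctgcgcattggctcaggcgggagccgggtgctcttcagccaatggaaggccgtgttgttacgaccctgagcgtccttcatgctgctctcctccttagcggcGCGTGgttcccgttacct
Entpd1, window 2: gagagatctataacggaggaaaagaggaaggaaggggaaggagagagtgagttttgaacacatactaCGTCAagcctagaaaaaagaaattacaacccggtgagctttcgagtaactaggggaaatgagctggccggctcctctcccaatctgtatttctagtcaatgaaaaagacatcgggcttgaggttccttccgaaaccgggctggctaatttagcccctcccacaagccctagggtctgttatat
The Nt5e window held 1 GCGTG, 138 to 134 bases before the start, and 4 GC boxes read on the minus strand, in 2 overlapping pairs. Window 1 of Entpd1 held 1 GCGTG, 18 to 14 bases before the start, and 1 TGACG on the minus strand, and window 2 held 1 TGACG on the minus strand. No ACGTG was found in these 3 windows. Of 32851 windows of this length in the table, 28.2% held GCGTG, 32.7% the GC box, 17.8% TGACG and 16.6% ACGTG. G and C made up 72.0% of the Nt5e window and 62.4% and 47.2% of windows 1 and 2 of Entpd1. The shares were not matched for this content. A match only says that these letters occur there.

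Other genes of the pathway and its surroundings were compared with limma, with p adjusted over all 379 tested genes. On the purine side, P2ry13, a receptor for ADP, and Dpp4, which binds adenosine deaminase in humans, were under the low-signal filter. Cd38, an NAD-consuming enzyme, had log2 levels of 10.16, 10.31 and 9.83 in Atg5BECKO TECs, against 10.04, 9.91 and 10.01 in WT TECs. These overlapped and gave a difference of 0.12 (standard error 0.19, adjusted p = 0.804), which turned to -0.26 with median centring, -0.19 with quantile normalization and -0.076 with voom. Downstream of cAMP, the protein kinase A catalytic subunit Prkacb differed by 0.30 on the log2 scale (standard error 0.18, adjusted p = 0.425) and the related kinase Prkx 0.20 (standard error 0.19, adjusted p = 0.647). Both turned negative with median centring (-0.084 and -0.18), and Prkx also with quantile normalization (-0.13).

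Of 17 hypoxia response genes listed, 13 were tested. On the deposited scale 12 of these were positive, against 74.4% of all tested genes, and 1 passed the thresholds of the paper. Their median log2 fold change was 0.22, close to the 0.24 of all tested genes. With median centring 6 of 13 were positive, with a median of -0.16 against -0.14 for all tested genes. With quantile normalization 6 of 13 were positive, with a median of -0.077 against -0.050. With voom 7 of 13 were positive, with a median of 0.0081 against 0.11. With scaling to the endothelial identity genes 10 of 13 were positive, with a median of 0.13 against 0.15. A part of hypoxia in the difference of Nt5e was not tested. Stc1, a secreted glycoprotein, was the one that passed, with log2 levels of 10.55, 11.10 and 10.32 in Atg5BECKO replicates 2, 3 and 5, against 9.65, 9.41 and 9.71 in WT replicates 1, 4 and 6. Its log2 fold change was 1.07 (standard error 0.25, adjusted p = 0.129), and 0.69 after median centring, under the fold threshold. Hif1a, the oxygen-regulated subunit of hypoxia-inducible factor, had 0.69 (standard error 0.26, adjusted p = 0.249), and its groups did not overlap. Values for Pfkfb3, a regulator of glycolysis, were 0.45 (standard error 0.18, adjusted p = 0.266), and for the ER oxidase Ero1l 0.49 (standard error 0.26, adjusted p = 0.380). The groups of both genes did not overlap on the deposited scale either. Of all tested genes, 25.6% were higher in Atg5BECKO TECs without overlap. With median centring Hif1a had 0.32, Pfkfb3 0.073 and Ero1l 0.11. Ero1l had 0.23 without Atg5BECKO replicate 3. Arnt2, Vegfa, Ndufa4l2 and Hk2 were under the low-signal filter.

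Of 5 TGF-beta ligands and receptors, 2 were positive and 0 passed the thresholds of the paper, with a median log2 fold change of -0.027. The receptors Tgfbr1 and Tgfbr2 had 0.68 (standard error 0.26, adjusted p = 0.249) and 0.44 (standard error 0.20, adjusted p = 0.344). The ligands Tgfb2 and Tgfb3 had -0.47 (standard error 0.28, adjusted p = 0.412) and -0.49 (standard error 0.39, adjusted p = 0.575). With median centring Tgfbr1 and Tgfbr2 had 0.30 and 0.060, and Tgfb2 and Tgfb3 had -0.85 and -0.87, at which both ligands passed the thresholds of the paper. With quantile normalization the receptors had 0.35 and 0.088, and the ligands -0.83 and -0.86, again past the thresholds. Leaving out 1 sample moved Tgfb3 to -0.13 without WT replicate 1 and -0.89 without WT replicate 4. None of the 21 companion genes tested had an adjusted p under 0.05 in limma. At an unadjusted p under 0.05 there were 4 of the 21, where 16.1% of all tested genes reached this.

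**Figure D4:**
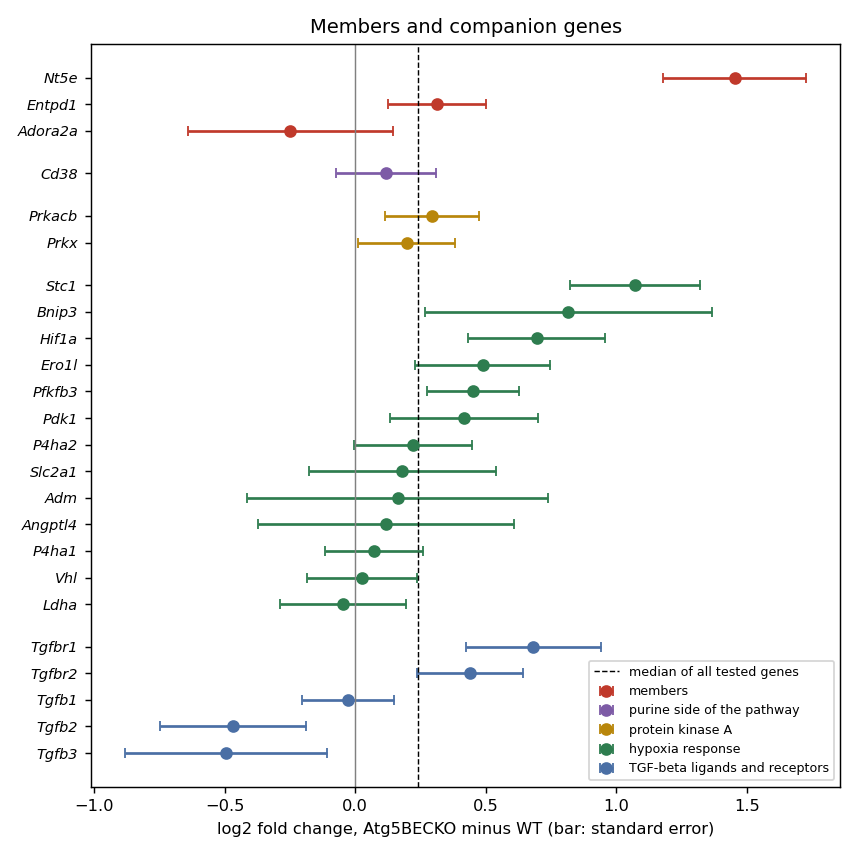
Log2 fold change, Atg5BECKO minus WT (horizontal axis, bars are standard errors), of the 3 members and the 21 tested companion genes by list, with the median of all tested genes as a dashed line at 0.24. Nt5e lies farthest to the right at 1.45, followed by Stc1 at 1.07, and Adora2a, Tgfb2 and Tgfb3 lie left of 0.

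The tested genes whose pattern over the 6 samples was nearest to each member were ranked by the root mean square difference of log2 values centred on each gene's mean. For Nt5e they were Stc1 (0.26), the NF-κB inhibitor gene Nfkbia (0.35), Cd14, a coreceptor for lipopolysaccharide (0.35), Hdc, the histamine-forming enzyme (0.37), and the kinase Ripk2 (0.39), where the median over all tested genes was 0.77. For Entpd1 they were Ripk1 (0.044), the IκB kinase gene Chuk (0.059), Prkx (0.083), Cd47 (0.097) and Casp9 (0.098), against a median of 0.34. Adora2a was nearest to the matrix glycoprotein gene Thbs1 (0.18), Mfge8 (0.18), the integrin gene Itgb3 (0.20), the cell cycle inhibitor Cdkn2b (0.20) and the angiopoietin gene Angpt2 (0.24), against a median of 0.65. All 5 neighbours of Nt5e lay above their own mean in each Atg5BECKO sample and below it in each WT sample. They were picked for likeness to Nt5e, which splits this way, so the shared split follows from the choice. Cd14 is also in the myeloid list below. The neighbours of Adora2a lay below their own mean in Atg5BECKO replicate 5 and WT replicate 6, as Adora2a did. This follows from the choice in the same way. The 3 sets of neighbours had no gene in common. All points come from the same 6 samples and their scaling factors, so likeness is a description.

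**Figure D5:**
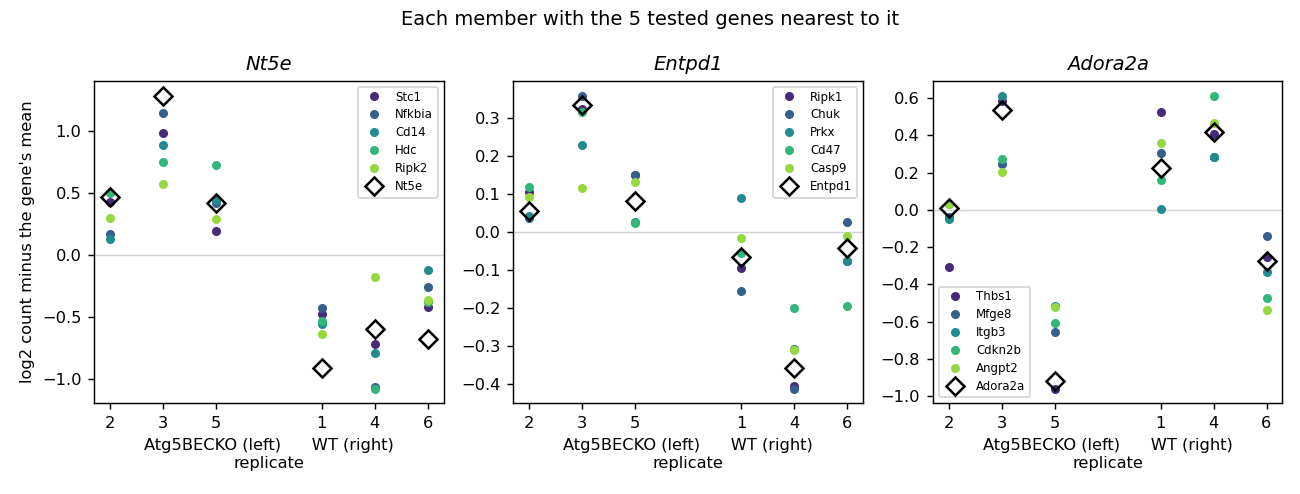
Log2 count minus the gene's own mean (vertical axis) in each replicate, Atg5BECKO on the left and WT on the right, for each member (open diamonds) and the 5 tested genes nearest to it (coloured points). Nt5e and its neighbours lie above 0 in all Atg5BECKO samples and below it in all WT samples. Adora2a and its neighbours lie below 0 in Atg5BECKO replicate 5 and WT replicate 6. Neighbours were picked for likeness, so the shared patterns follow from the choice.

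Markers of other cells that can carry CD73 or CD39 were read beside these values. The lymphatic endothelial genes on the panel, Ccl21a, a lymphocyte-attracting chemokine, and Reln, were both tested. Their summed log2 level ranged from 7.86 to 8.72 in Atg5BECKO TECs and from 6.18 to 7.49 in WT TECs. These summed levels did not overlap between the groups. Of single tested genes, 25.6% were higher in Atg5BECKO TECs without overlap. Atg5BECKO replicate 2 was highest, and WT replicate 4 was lowest at 6.18. The log2 difference of Ccl21a was 2.08 (standard error 0.46, adjusted p = 0.129), and Reln 0.21 (standard error 0.29, adjusted p = 0.791) with overlapping groups. Of 11 fibroblast and mural cell markers, 4 were tested. Of these, 3 were lower in Atg5BECKO TECs at the thresholds of the paper, Thy1, Col6a3 and Olfml2b, against 0.792% of all tested genes. Adam12, the other tested marker, had -0.068 with overlapping groups, and the markers under the low-signal filter went both ways. The summed levels of all 11, tested or not, overlapped, at 9.18 to 9.82 in Atg5BECKO TECs and 9.58 to 10.32 in WT TECs. Of 11 myeloid markers 5 were tested, and 1 of them, Cd14, was higher at the thresholds. All 11 together, tested or not, summed to 8.58 to 8.86 in Atg5BECKO TECs and 7.81 to 9.17 in WT TECs. Of 12 lymphocyte markers 2 were tested. The summed level of all 12, mostly genes under the low-signal filter, was 7.40 to 7.80 in Atg5BECKO TECs and 6.73 to 7.94 in WT TECs. The pan-leukocyte gene Ptprc and the platelet gene Pf4 were under the low-signal filter, and of the melanocyte genes only Mlana was tested, at 5.11 ± 0.32 in Atg5BECKO TECs and 5.18 ± 0.75 in WT TECs (SD, n = 3 each). The part of these cells in the values of Nt5e and Entpd1 was not tested.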

How the data were processed

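NanoString nCounter values of 6 TEC samples were used, 3 Atg5BECKO and 3 WT, grouped by their labels. One sheet of the study's source data heads these samples as WT and KO in another order, which would change the groups and every difference given here. Another sheet matches the labels, and the labels were followed. The authors scaled the counts in nSolver by 1 housekeeping factor per sample and deposited them on the log2 scale, with no background subtracted. Whole counts were recovered from the values alone, as the largest constant of which every value of a sample is a whole multiple within a tolerance of 0.01, which held for 100% of values. They give the total counts and the exact Poisson intervals (95%).

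The 379 genes that the study's low-signal filter kept were compared, Atg5BECKO minus WT, by a linear model (lmFit, then eBayes with 1 prior variance; limma 3.58.1, R 4.3.3) with Benjamini-Hochberg adjustment. Members, companion and marker lists were chosen with earlier results of these data known. Named genes are the members, companions past the thresholds of the paper and up to 4 of each list by p, the 5 nearest genes per member, and markers. Companion lists were purine metabolism, protein kinase A, hypoxia and TGF-beta. The fit was tested on simulated data. Alternatives were median centring, quantile normalization, scaling to endothelial genes, a pseudocount of 10, background subtraction (each sample's median of the 371 low-signal genes, floor of 1), voom on recovered counts, other gene filters, limma with a trend or robust, the methods' t-test, and leaving out each sample. Promoter windows came from RefSeq (GRCm38.p6). Figures were drawn with matplotlib 3.10.9.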

Additional observations from a re-analysis of the deposited data

How the results depend on the processing

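Nt5e was chosen in part by its difference in these samples, so its values under other settings are a description and no support. Its log2 fold change was 1.07 after median centring, and 1.17 to 1.60 with 1 sample left out, lowest without Atg5BECKO replicate 3. Entpd1 had -0.066 after median centring and -0.032 after quantile normalization, both of which lower the whole table of Atg5BECKO values, and 0.21 to 0.37 with 1 sample left out. Adora2a had -0.58 to 0.15 with 1 sample left out, positive only without Atg5BECKO replicate 5. Nt5e minus Entpd1, Nt5e minus Adora2a and Entpd1 minus Adora2a ran from 0.95 to 1.31, 1.45 to 1.93 and 0.20 to 0.81 with 1 sample left out, the last 2 only approximate because Adora2a was not above the low-signal level in Atg5BECKO replicate 5 and WT replicate 6. Genes past the thresholds of the paper, 41 higher and 3 lower, became 17 and 13 with median centring and 21 and 9 with quantile normalization, and the lower ones 6 with voom, 5 with no filter and 1 with the methods' t-test. With 1 sample left out they were 30 to 58 higher and 3 to 4 lower. Genes at an adjusted p under 0.05, 0 in limma, were 1 after background subtraction and 18 without WT replicate 6, the sample of lowest depth. Of the companion genes, 1 passed the thresholds, against 2 with median centring, 3 with quantile normalization, 3 with background subtraction, and 1 to 3 with 1 sample left out (2 without Atg5BECKO replicate 3, WT replicate 1 or WT replicate 4, and 3 without WT replicate 6). Stc1, at 0.69 after median centring, was then just under the fold threshold. Directions turned for Cd38 (-0.26 with median centring, -0.19 with quantile normalization, -0.076 with voom), Prkacb (-0.084 with median centring) and Prkx (-0.18 and -0.13 with these scalings). The cause of these changes was not tested. All 5 genes nearest to each member stayed after median centring, which by construction leaves this measure as it is. The labels give no pairing of the samples, so no paired analysis was run. Adora2a had 23 to 113 counts per sample.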
